A study of Mus musculus with 11 samples.

Results

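The arms of miR-744, miR-574 and miR-1249 were followed in liver of telomerase-knockout mice with and without the tumour suppressor p53. A microRNA (miRNA) is a short RNA cut from a hairpin precursor, whose 5′ and 3′ sides are the source of its 5p and 3p arms. The members were every entry of the count table named after these 3 hairpins: mmu-miR-744-5p, mmu-miR-744-3p, mmu-miR-574-5p, mmu-miR-574-3p, mmu-miR-1249-3p and mmu-miR-1249-5p, 6 of the 1281 mature names. They were chosen by their measured genotype difference, since the tested arms leaned higher in p53-/- livers. Their differences between genotypes are therefore given as a description, without a test.

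miRNAs of liver RNA were counted by sequencing, in 6 libraries from G4 p53-/- mice (short telomeres, no p53) and 5 from G4 p53+/+ mice (short telomeres, intact p53). Both groups lacked telomerase, were on a C57/B6 background and were untreated. Their ages are not given in the labels. The labels do not tie libraries to single animals, and p-values below reflect only how far these libraries spread, which may be technical. Libraries are named by the sample numbers of their titles: 6, 7, 8, 10, 11 and 12 for p53-/- and 1 to 5 for p53+/+. Total counts per library, with each name counted once, ran from 2202415 to 6682492 in p53-/- and from 1905609 to 6448820 in p53+/+ libraries. The hepatocyte miRNA miR-122-5p took 52.8 to 64.0% of the counts in p53-/- and 52.4 to 57.7% in p53+/+ libraries. p53-/- library 6 stood apart from its group in member levels and library 11 in depth, and values without each are given below. In bulk liver, fewer cells of a type and less RNA per cell cannot be told apart.

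A miRNA pairs with messenger RNAs mainly through its seed, bases 2 to 8 from its 5′ end, and lowers their translation and stability. Short telomeres activate p53, a transcription factor, and miR-34a is its best known miRNA target. miR-744 was reported to raise cyclin B1 in mouse cells and to repress TGFB1, a growth factor of fibrosis, in human cells. miR-574-5p was described in human cells as a decoy for the RNA-binding protein CUGBP1 and as a ligand of RNA-sensing Toll-like receptors, and both arms of miR-574 were reported to repress Fam210a, a mitochondrial protein, in mouse heart. miR-1249 was reported in human colorectal cancer cells to be induced by p53 and to repress VEGFA and HMGA2.

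The mature sequences, shown because the members' base composition is compared with that of other miRNAs below, are those of RefSeq on GRCm38.p6, with the seed in capitals.
miR-744-5p: uGCGGGGCuagggcuaacagca
miR-744-3p: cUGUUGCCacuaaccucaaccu
miR-574-5p: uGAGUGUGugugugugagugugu
miR-574-3p: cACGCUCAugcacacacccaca
miR-1249-3p: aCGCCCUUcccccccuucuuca

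The 5 sequences had 5 different seeds, and among the names of the count table that have a RefSeq sequence, none shared a seed with them. miR-744-5p and miR-1249-3p were each 63.6% G and C, miR-574-3p 59.1%, miR-744-3p 50.0% and miR-574-5p 47.8%. The composition behind these shares differed. miR-744-5p had 9 G and 5 C, while miR-1249-3p had 13 C and 1 G, with a run of 7 C. miR-574-5p held 11 G, 10 U and 0 C, with a UG repeat of 13 bases, and miR-574-3p had 11 C with a CA repeat of 7 bases.

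The hairpins, with the arms above in capitals, show where each arm is cut.
Mir744: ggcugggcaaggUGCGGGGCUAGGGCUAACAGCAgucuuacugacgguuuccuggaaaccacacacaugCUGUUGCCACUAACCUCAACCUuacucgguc
Mir574: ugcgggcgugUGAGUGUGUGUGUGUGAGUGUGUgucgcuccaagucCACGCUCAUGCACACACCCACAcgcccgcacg
Mir1249: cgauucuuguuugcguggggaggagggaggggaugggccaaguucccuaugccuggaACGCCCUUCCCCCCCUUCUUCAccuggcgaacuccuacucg

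Each hairpin lies on the strand of a protein-coding host gene, by GENCODE M21 on GRCm38. Mir744 (chromosome 11, 65734733 to 65734832, minus strand) is intronic in all 5 transcripts of Map2k4 that span it. Map2k4 encodes a kinase upstream of JNK and p38. Mir574 (chromosome 5, 64970318 to 64970395, plus strand) is in intron 1 of Fam114a1, 247 bases after the start of that gene. Mir1249 (chromosome 15, 84951526 to 84951623, minus strand) is in intron 7 of both protein-coding transcripts of 5031439G07Rik that span it, and within exon 6 of a transcript annotated as a retained intron. The 3 loci are on different chromosomes, so the hairpins do not share a primary transcript.

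miR-744-5p was the most abundant member, ranking 63rd of the 1281 names by mean CPM (reads of a miRNA scaled to a common library total), followed by miR-574-3p at rank 90, miR-574-5p at 115 and miR-1249-3p at 144. Levels below are normalised CPM, that is CPM after edgeR's TMM scaling, which aligns the bulk of miRNAs between libraries. The minor arms were near the limit of detection. miR-744-3p had at most 15 reads in a library. miR-1249-5p had 9 reads in all 11 libraries together, at most 4 in any, and did not pass the filter on low counts. So 5 of the 6 arms were tested among the 388 miRNAs that passed.

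miR-744-5p had a lowest level of 620, a median of 859 and a highest of 945 normalised CPM in the 6 p53-/- libraries, against 434, 558, 671, 599 and 554 in p53+/+ libraries 1 to 5. Of the p53-/- libraries only library 6 lay inside the p53+/+ range. The means were 840 ± 118 (SD, n = 6) in p53-/- and 563 ± 86.0 (SD, n = 5) in p53+/+ livers, a log2 fold change of 0.58 (SE 0.16). The counts behind them ran from 2588 to 6205 in p53-/- and from 911 to 4003 in p53+/+ libraries.

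miR-574-5p, the GU-repeat arm, had a lowest level of 116.0, a median of 139 and a highest of 194.3 normalised CPM in p53-/- libraries, against 66.8, 89.8, 101.2, 116.3 and 108 in p53+/+ libraries 1 to 5. The groups overlapped only through p53-/- library 6 and p53+/+ library 4, whose values nearly coincided. The means were 148 ± 27.0 (SD, n = 6) in p53-/- and 96.4 ± 19.2 (SD, n = 5) in p53+/+ livers, a log2 fold change of 0.62 (SE 0.18).

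miR-574-3p, from the same hairpin, ran from 145.4 through a median of 299.9 to 350.2 normalised CPM in p53-/- libraries, against 96.8, 164, 250.4, 245 and 214.7 in p53+/+ libraries 1 to 5. The lowest p53-/- value, again that of library 6, was below 4 of the 5 p53+/+ values, and the other 5 p53-/- libraries were above them all. The means were 283 ± 71.0 (SD, n = 6) in p53-/- and 194.2 ± 64.3 (SD, n = 5) in p53+/+ livers. The log2 fold change of 0.54 had an SE of 0.26, and its 95% interval ran from -0.02 to 1.11.

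miR-1249-3p, the C-rich arm, ran from 47.9 through a median of 80.3 to 106.6 normalised CPM in p53-/- libraries, against 32.9, 41.1, 67.7, 54.2 and 38.8 in p53+/+ libraries 1 to 5. Library 6 was the only p53-/- library within the p53+/+ range. The means were 80.1 ± 19.1 (SD, n = 6) in p53-/- and 46.9 ± 14.0 (SD, n = 5) in p53+/+ livers, a log2 fold change of 0.76 (SE 0.23), the largest of the 5 tested arms.

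miR-744-3p, the minor arm, had too few reads to show a difference of the size seen in its 5p partner. It had 0, 15, 11, 6, 5 and 15 reads in p53-/- libraries 6, 7, 8, 10, 11 and 12, against 0, 5, 9, 12 and 5 in p53+/+ libraries 1 to 5. The log2 fold change of 0.11 had an SE of 0.61, and its interval, -1.21 to 1.43, held the value of miR-744-5p. miR-1249-5p had 1 read in p53-/- library 8 and 4 in library 12, against 1 read in p53+/+ library 1 and 3 in library 5, so no difference was detectable at this depth.

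**Figure D1:**
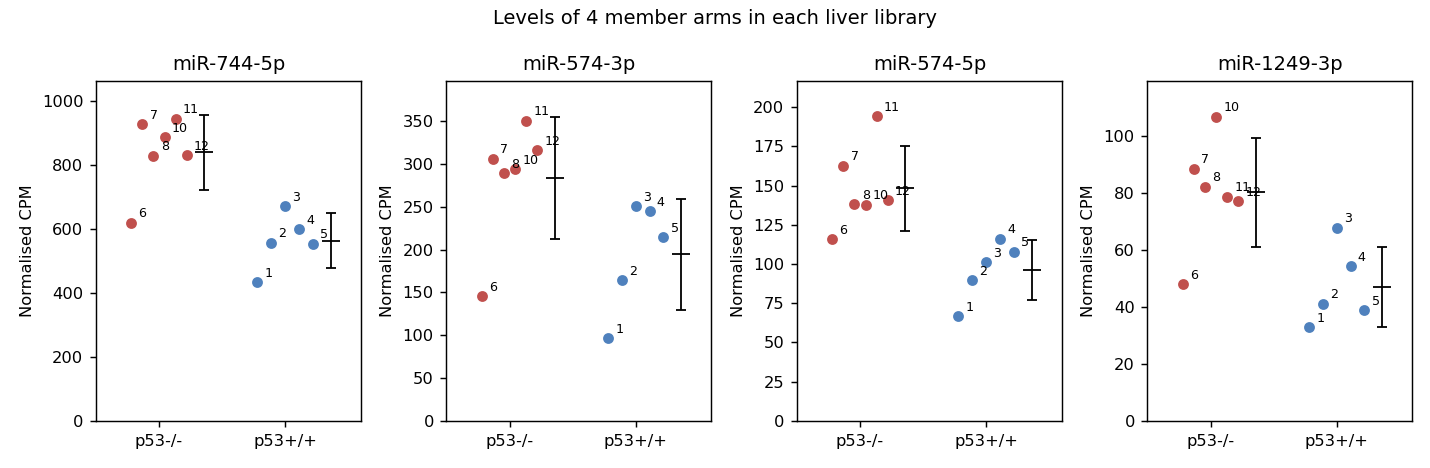
Normalised CPM of 4 member arms (y axes, linear from 0) in p53-/- and p53+/+ libraries (x axes). Each point is a library, labelled with its sample number, and the bar beside each group is the mean ± SD (n = 6 and n = 5). In each panel p53-/- library 6 is the point that reaches into the p53+/+ range, at miR-574-5p by 116.0 against 116.3.

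None of the 5 tested arms was called by edgeR's quasi-likelihood test at an adjusted p of 0.05. Over all 388 miRNAs that test called 0% higher in p53-/- livers, with 32 higher at an unadjusted p under 0.05, and called 0.258% in either direction. The single call was miR-34a-5p, which was lower, with a log2 fold change of -3.33 (adjusted p = 7.07e-05 in edgeR). DESeq2 called 3 of the 5 arms (miR-1249-3p, miR-744-5p and miR-574-5p), where it called 2.06% of all miRNAs higher. That share includes these 3 arms, and it counts as not called 138 of the 388 miRNAs that DESeq2 gave no adjusted p. None of the 5 arms had p53-/- libraries wholly above the p53+/+ range, against 1.29% of the 388. For 3 of the 5, the same arms that DESeq2 called, every p53-/- library was above the p53+/+ median. That held for 12.1% of the 388, these 3 included. Since this contrast chose the members, these counts are shown only beside their background.

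Among miRNAs with values above 0, the log2 fold changes of neighbours in the order of p show where the choice fell. Ahead of miR-744-5p, the member with the smallest p, stood miR-99b-3p at 0.75 (SE 0.17) and miR-194-2-3p at 0.49 (SE 0.12), and just after miR-1249-3p stood miR-139-5p at 0.47 (SE 0.14) and miR-150-5p at 0.68 (SE 0.22). Of the 388 miRNAs, 21 had a larger log2 fold change than miR-1249-3p, 34 than miR-574-5p, 37 than miR-744-5p, 47 than miR-574-3p and 152 than miR-744-3p.

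Among miRNAs reported to be induced by p53, a list that holds miR-34a, the miR-192, miR-194 and miR-215 families and others, 28 of 41 names were tested. Values were above 0 for 7 and below 0 for 21, with a median log2 fold change of -0.18. Over all 388 the median was -0.01 and 49.0% of values were above 0. With the GC offset described below the median of the list was -0.11, over the 21 miRNAs with a sequence. Of the 28, miR-34a-5p fell and 0 were called higher by edgeR. The list leaves out miR-1249, reported as induced by p53 in human colorectal cancer cells, whose 3p arm was at 0.76 here. The member arms had a median of 0.58, and of 0.32 with the GC offset, from values above 0 that the choice of members fixed.

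GC-rich small RNAs can be recovered unequally between libraries, so the libraries were compared on miRNAs other than the members. For each library, log2 CPM centred on each miRNA's mean was regressed on GC content over 312 tested miRNAs, giving a GC slope in log2 units per 10 percentage points of GC. The slope was -0.11 in p53-/- library 6, 0.11 in library 7, 0.06 in library 8, 0.10 in library 10, 0.22 in library 11 and 0.11 in library 12. It was -0.15, -0.14, -0.05, -0.03 and -0.11 in p53+/+ libraries 1 to 5. Slopes are relative to the mean of the 11 libraries, so they sum to 0 and only their differences carry information. Library 6 lay inside the p53+/+ range, and the other 5 p53-/- libraries lay above it. The mean slope was 0.08 ± 0.11 (SD, n = 6) in p53-/- and -0.10 ± 0.05 (SD, n = 5) in p53+/+ libraries, a difference of 0.18 (two-sided exact permutation p = 0.0130, where 0.00433 is the smallest p that the 462 label arrangements allow).

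**Figure D2:**
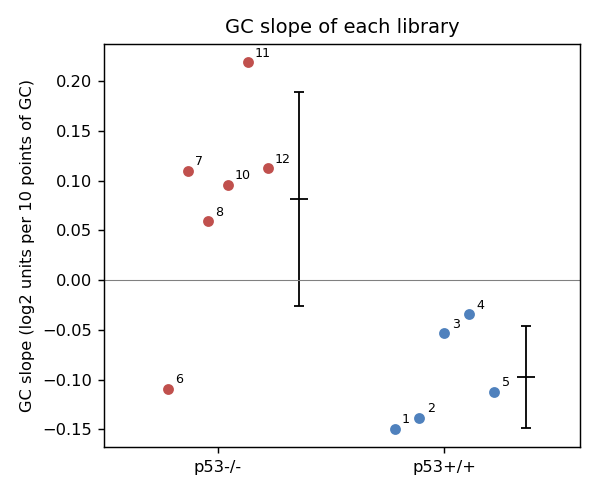
GC slope of each library (y axis, log2 units per 10 percentage points of GC, from 312 miRNAs that are not members) in p53-/- and p53+/+ libraries (x axis). Points are libraries with their sample numbers, bars are mean ± SD. Library 6 lies with the p53+/+ libraries at -0.11 and library 11 is highest at 0.22.

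The genotype differences of other miRNAs followed GC content in the same direction. The median log2 fold change was -0.20 over the 101 miRNAs with at most 45% GC, 0.08 over the 135 between 45 and 55%, and 0.23 over the 76 with at least 55%, where 73.7% of values were above 0. Over the 148 non-members within the GC range of the tested members, 47.8 to 63.6%, the median was 0.18 and 95 values were above 0. Of these 148, 11 had a larger value than miR-1249-3p, 15 than miR-574-5p, 17 than miR-744-5p, 23 than miR-574-3p and 82 than miR-744-3p. The members were chosen by this same contrast, so their places are a description and nothing is read from them. The range is also wide, and miR-744-5p and miR-1249-3p lie at its upper end, 63.6%. Among the 128 of them that also lay within the members' range of mean counts, the median was 0.20.

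**Figure D3:**
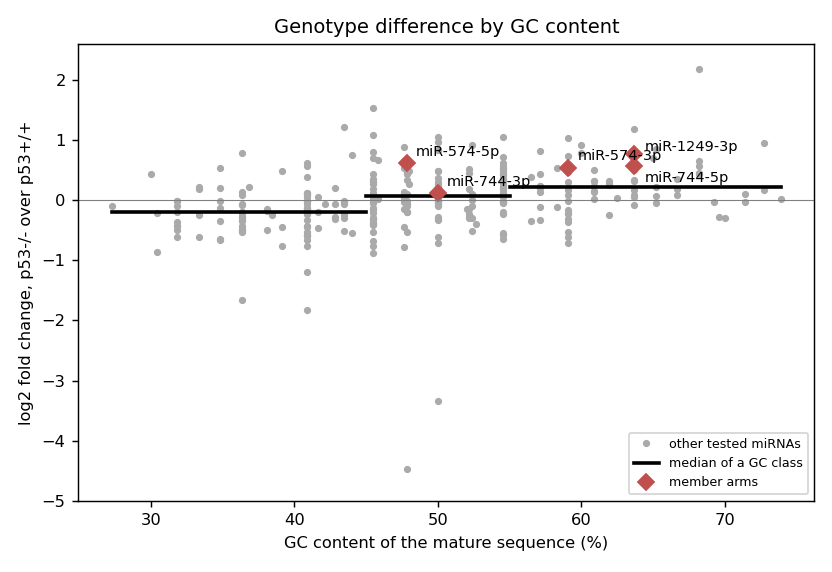
Log2 fold change, p53-/- over p53+/+ (y axis), against GC content of the mature sequence (x axis, percent). Grey points are the 312 other tested miRNAs with a sequence, black lines the medians of the 3 GC classes (-0.20, 0.08 and 0.23), red diamonds the 5 tested members, which all lie above 0.

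With each library's own GC curve entered as an offset in the edgeR fit, the member differences changed unequally. On the 317 miRNAs with a sequence, miR-744-5p had a log2 fold change of 0.29 (SE 0.13) with the offset and 0.54 without it. miR-574-3p had 0.32 (SE 0.22) with the offset and 0.51 without it, and miR-1249-3p had 0.49 (SE 0.20) with it and 0.72 without it. miR-574-5p, the arm of lowest GC content, had 0.62 (SE 0.18) with the offset and 0.58 without it. The medians of the other miRNAs changed as well, to 0.02 over the 148 in the members' GC range and to 0.04 over the 128 also in their range of counts. The GC curves were fitted to non-members only, these included, so their medians near 0 follow from the fit. They are no background for the member values. The 4 arms kept values above 0, and edgeR called none of them in either fit. GC slope and genotype moved together in these libraries, so the parts of the 2 in the member differences cannot be told apart.

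**Figure D4:**
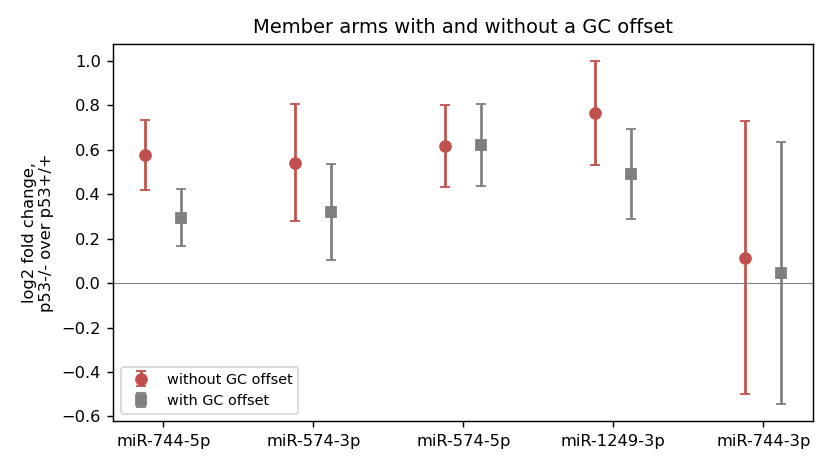
Log2 fold change, p53-/- over p53+/+ (y axis), of the 5 tested member arms (x axis). Circles are the fit over 388 miRNAs without a GC offset, squares the fit over 317 with it, bars ± 1 SE. With the offset miR-744-5p is at 0.29 and miR-574-5p at 0.62. The fit over the same 317 without the offset, not drawn, gives 0.54 and 0.58.

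On the log2 scale with the GC curve subtracted, miR-574-5p ran from 6.87 to 7.71 log2 CPM in p53-/- and from 6.20 to 6.83 in p53+/+ libraries, so that all 6 p53-/- libraries stood above the p53+/+ range, by a narrow margin at library 6. The p53-/- range was wholly above the p53+/+ range for 0.946% of the 317 miRNAs on this scale, a share that includes miR-574-5p. Nothing is read from the comparison, since this contrast chose the members. The SD of miR-574-5p was 0.32 in p53-/- and 0.24 in p53+/+ libraries, against 0.25 and 0.31 before the subtraction. miR-744-5p ran from 9.42 to 9.72 in p53-/- and from 9.005 to 9.45 in p53+/+ libraries, with library 6 alone inside the p53+/+ range. Its SD was 0.12 in p53-/- and 0.17 in p53+/+ libraries, against 0.22 and 0.23 before the subtraction. The ranges of miR-574-3p and miR-1249-3p overlapped between genotypes after the subtraction, as they did before it.

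Within the p53-/- group, which does not use the genotype contrast, the members were compared with each other. Among 15 relations, the 10 pairs of tested arms and the 5 arms against the GC slope, all Pearson's r were above 0. That sign was not kept in every relation once the 2 libraries farthest from the median were left out. There r ran from -0.68 (miR-744-3p and miR-574-3p) to 0.85 (miR-574-3p against the GC slope). All 15 relations share the libraries and their scaling. After Benjamini-Hochberg adjustment over the 15 only miR-574-3p against the GC slope passed. It had r = 0.95 (n = 6, exact permutation p = 0.00139, the smallest possible, adjusted p = 0.0208) and Spearman's rho = 1.00 (exact permutation p = 0.00278, the smallest possible, adjusted p = 0.0417). Without the 2 libraries farthest from the median slope r was 0.85. Both measures share the library and its scaling.

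Against the slope, miR-744-5p had r = 0.94 (n = 6, exact permutation p = 0.00972, adjusted p = 0.0729) and rho = 0.83 (exact permutation p = 0.0583, adjusted p = 0.146), and r was 0.46 without the 2 farthest libraries. miR-574-5p had r = 0.91 (n = 6, exact permutation p = 0.0250, adjusted p = 0.0990) and rho = 0.89 (exact permutation p = 0.0333, adjusted p = 0.146), and r was 0.49 without them. For miR-1249-3p r was 0.70 (n = 6, exact permutation p = 0.160, adjusted p = 0.184) and rho 0.09 (exact permutation p = 0.919, adjusted p = 0.919), and r was 0.04 without them. The relations of miR-744-5p and miR-574-5p with the slope thus lean on libraries 6 and 11 within this group. Over all 11 libraries with genotype means subtracted, r with the slope was 0.84 for miR-744-5p, 0.78 for miR-574-5p, 0.83 for miR-574-3p and 0.71 for miR-1249-3p, given as a description. Differences between these r were not tested.

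Between arms, miR-744-5p and miR-574-3p had r = 0.96 (n = 6, exact permutation p = 0.0264, adjusted p = 0.0990) and rho = 0.83 (exact permutation p = 0.0583, adjusted p = 0.146). Without the 2 libraries farthest from the median of miR-744-5p that r was 0.04 over the remaining 4, so within this group it rests on them. Over all 11 libraries with genotype means subtracted r was 0.94, given as a description. The lowest r was that of miR-574-5p and miR-1249-3p, 0.46 (n = 6, exact permutation p = 0.347, adjusted p = 0.347) and rho = 0.14 (exact permutation p = 0.803, adjusted p = 0.919), with r = -0.05 without the 2 farthest. No correlation is given for the p53+/+ group alone, since its 5 libraries are fewer than the 6 required here.

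The non-members whose levels moved most like a member over the 11 libraries, with genotype means subtracted, were taken as the 3 highest Pearson's r of 383. For miR-744-5p they were miR-193a-5p (r = 0.95), miR-1843a-3p (0.89) and miR-3073b-3p (0.87). For miR-574-3p they were miR-193a-5p (0.93), miR-151-3p (0.92) and miR-3073b-3p (0.90), and for miR-1249-3p they were miR-1843a-3p (0.90), miR-125b-1-3p (0.89) and miR-203-3p (0.87). The genotype differences of these miRNAs were not alike, with log2 fold changes from -0.44 (SE 0.21) for miR-203-3p to 0.56 (SE 0.21) for miR-151-3p. They share libraries and scaling with the members, and r is a measure of likeness only. Some were low: miR-3073b-3p had means of 2.78 normalised CPM in p53-/- and 2.45 in p53+/+ libraries, and miR-125b-1-3p 6.30 and 5.81. Their r rest on few reads.

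The hairpins differed in which arm was kept. miR-744 was almost wholly 5p, with a 5p share of its reads of 99.8 ± 0.10% (SD, n = 6) in p53-/- and 99.8 ± 0.15% (SD, n = 5) in p53+/+ libraries. miR-1249 was almost wholly 3p, with a 3p share over pooled reads of 99.8% in p53-/- and 99.6% in p53+/+ libraries. miR-574 kept both arms, with a 5p share of 34.97 ± 4.95% (SD, n = 6) in p53-/- and 34.1 ± 4.44% (SD, n = 5) in p53+/+ libraries, close to each other beside the spread between libraries.

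The 5p share of miR-574 was not the same in every library. It was 44.4% in p53-/- library 6 (95% Wilson interval 41.5 to 47.3%), against 30.8 to 35.7% in the other p53-/- libraries. In p53+/+ libraries it ran from 28.8% in library 3 (26.9 to 30.8%) to 40.8% in library 1 (35.7 to 46.1%). The libraries with the highest 5p share, 6 and 1, had the lowest levels of both miR-574-3p and miR-574-5p in their groups, and their GC slopes were -0.11 and -0.15. But p53+/+ libraries 2 and 5 had slopes of -0.14 and -0.11 with 5p shares of 35.3 and 33.5%. A relation of 5p share and slope was not tested.

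**Figure D5:**
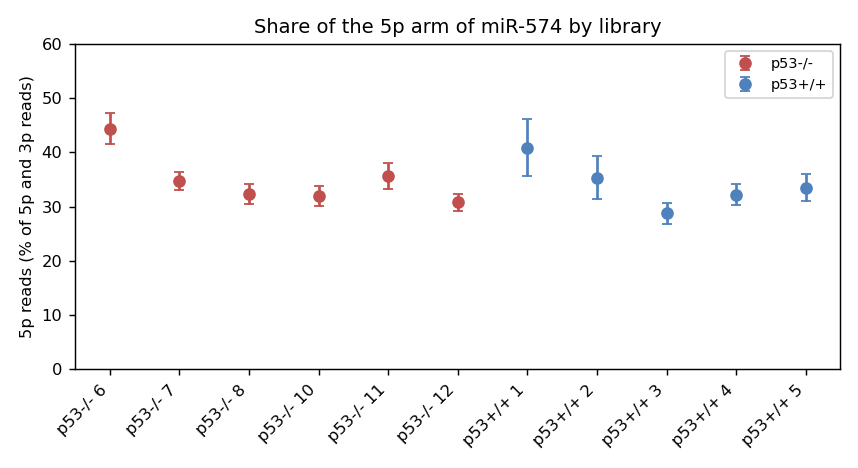
Reads of the 5p arm as a percentage of all miR-574 reads (y axis, from 0) in each library (x axis), with 95% Wilson intervals, which cover counting error only. Library 6 at 44.4% and library 1 at 40.8% are the highest of their genotypes.

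Libraries 6 and 11 stood apart within the p53-/- group in other ways as well. Library 6 had the highest miR-122-5p share, 64.0% of counts, and the lowest share of member reads in its group, 0.0773%, against 0.122 to 0.195% in the other p53-/- libraries. Library 11 had the highest share of member reads, 0.195%, and the fewest counts of its group, 2202415. In p53+/+ libraries the member share was 0.0674, 0.0994, 0.112, 0.0937 and 0.0866%. Without library 6 the log2 fold changes were 0.65 for miR-744-5p, 0.68 for miR-574-5p, 0.67 for miR-574-3p and 0.87 for miR-1249-3p. The GC slopes then differed by 0.22 (two-sided exact permutation p = 0.00794, the smallest possible). Library 6 was the only p53-/- library inside the p53+/+ slope range, so leaving it out fixed this p in advance. Without library 11 the log2 fold changes were 0.56, 0.55, 0.48 and 0.79 for the same arms in that order, and the slopes differed by 0.15 (two-sided exact permutation p = 0.0238).

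Markers of liver and neighbouring cells were summed in the same libraries, in normalised CPM. Hepatocyte markers (5 of 5) ran from 484060 to 840756 in p53-/- and from 497674 to 701703 in p53+/+ libraries, with library 6 the highest. Leukocyte markers (6 of 6, with miR-142 under its older name) ran from 227 to 346 in p53-/- and from 186 to 305 in p53+/+ libraries. Log2 fold changes were above 0 for 5 of the 6 leukocyte and 3 of the 5 hepatocyte markers, against 49.0% of all 388 miRNAs.

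Mesenchymal markers (5 of 5) ran from 5603 to 6627 in p53-/- and from 4840 to 8815 in p53+/+ libraries, with 1 of 5 log2 fold changes above 0. Biliary epithelial markers (6 of 6) ran from 828.8 to 2454 in p53-/- and from 1096 to 2995 in p53+/+ libraries, with 0 of 6 above 0. Erythroid markers (4 of 4) ran from 591 to 1336 in p53-/- and from 528 to 1399 in p53+/+ libraries, with 2 of 4 above 0. The ranges of the lists overlapped between genotypes. Endothelial markers (2 of 2) ran from 5772 to 10476 in p53-/- and from 6012 to 11013 in p53+/+ libraries, with 0 of 2 above 0. Pancreas markers (4 of 4 in the table, 2 tested) ran from 6.75 to 27.5 in p53-/- and from 2.86 to 410 in p53+/+ libraries, with 0 of the 2 above 0. No marker of these lists was called by edgeR, and none was at 0 in all libraries. Their part in the member differences was not tested.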

How the data were processed

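Small RNA of 11 mouse liver libraries was analysed. Per the labels' protocols, RNA came from 50 mg of liver by Trizol, with DNA digestion and column purification. The deposited counts give reads for each mature name and its hairpin. GRCm38 is the build, and limma a tool, listed per the submitters' processing notes, while aligner and counter: not given in the sources used here. CPM values were deposited as well, each count over the library's sum of all 1418 entries. Names with several hairpins were listed repeatedly (76 names), and each was counted once, by its highest count. Each member has 1 entry. Library files and the series table had 0 differing counts, and 0 value columns were left unused.

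The genotype contrast on these counts used edgeR 4.0.16, run in R 4.3.3 (quasi-likelihood test, TMM, filterByExpr, Benjamini-Hochberg over 388 miRNAs that hold 99.98% of counts, threshold 0.05), checked on counts with known changes. Log2 CPM used a prior count of 2. Alternatives used DESeq2 1.42.0 and limma 3.58.1, also on log2 of the deposited CPM plus 1. GC content was known for 317 of the 388 miRNAs (81.7%), from RefSeq sequences. Per-library GC curves were loess fits (span 0.75, degree 1) without the members. Single values were compared with exact permutation tests (scipy 1.17.1). A count of 0 allows up to 3 reads, or 0.449 to 1.57 CPM, and intervals cover counting error only. Replicate numbers are not shared between genotypes. Named miRNAs were all member arms, the 3 most alike to the main arm of each hairpin, miR-34a-5p, and the neighbours of the members in the order of p. Members and lists were chosen with earlier results of these data known.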

Additional observations from a re-analysis of the deposited data

Results flagged for a closer look

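Values were examined for a library far from the rest of its group in 24 sets of libraries, of which chance alone would single out about 1 in 20, and 6 were singled out. The sets share libraries and in part the same reads, so they are not independent and the 6 are not read as an excess. In p53-/- library 6, miR-744-5p was at 620 normalised CPM, where the nearest p53-/- library was at 830. In the same library miR-574-3p was at 145.4 normalised CPM, where the nearest was at 289, and the 5p share of miR-574 was 44.4%, where the nearest was 35.7%. That library also had the highest miR-122-5p share of counts, 64.0%, and the lowest GC slope among p53-/- libraries, -0.11. In p53-/- library 12, miR-1249-5p was at 0.558 normalised CPM and its share of miR-1249 reads at 0.719%, from 4 reads, where the nearest values were 0.185 normalised CPM and 0.225%, from 1 read. p53-/- library 11 had 2202415 counts, where the nearest had 5243933.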

How the results depend on the processing

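The counts of calls, 0 higher and 1 lower in p53-/- livers, were the same under every alternative to the edgeR fit except DESeq2, which called 8 higher and 9 lower (138 adjusted p-values were not given by DESeq2). miR-34a-5p was the call in each of the others. The cause of the difference between tools was not tested. The log2 fold changes of the 4 abundant arms were above 0 under all 25 alternatives. The alternatives reuse the libraries whose contrast chose the members, so this shared sign is no support for a difference. The GC offset gave the lowest value of miR-744-5p, 0.29, where the other 24 alternatives gave 0.50 to 0.65. miR-574-5p ran from 0.50 to 0.69, miR-1249-3p from 0.49 to 0.88, and miR-574-3p from 0.30, without the 2 shallowest p53+/+ libraries, to 0.70. With only the 3 p53-/- libraries of HA number above 500, against the 5 p53+/+ libraries, miR-744-5p was at 0.64 and miR-574-5p at 0.69. There miR-574-3p was at 0.70 and miR-1249-3p at 0.87. Leaving out a library turned the sign of miR-744-3p in 4 cases, with a lowest value of -0.11 (p53+/+ library 1 left out) and a highest of 0.35 (p53-/- library 6 left out).

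The difference in GC slope was 0.15 to 0.24 in the alternatives on that scale and passed an exact permutation p of 0.05 in each. Without library 6, and with HA numbers above 500 alone, the groups did not overlap. The exact permutation p there, 0.00794 and 0.0357, was the smallest possible. With all libraries scaled by their totals only, 12 of the 15 relations within p53-/- libraries passed the adjusted threshold, in place of 1 after TMM scaling, and the cause was not tested. No paired analysis was possible because the genotypes share no replicate number. Depth limits the minor arms: 3 reads stood for up to 1.57 CPM, near the levels of miR-744-3p.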
